A study of Mus musculus with 26 samples.

Results

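The transcriptome of T helper 0 (Th0) cells, CD4 T cells activated in culture without polarisation to a lineage, was compared with that of the naive CD4 T cells from which such cultures start. The samples were chosen by their labels alone: the Th0 libraries and the naive libraries of the main RNA-seq table, 2 of each, made up 4 of the 26 samples of the series. The series asks how Vitamin C, retinoic acid and TGFβ act on induced regulatory T cells and on the TET enzymes. All 4 libraries were made from lymph node and spleen cells of mice of strain C57BL/6, 5 to 6 weeks old, that carry the Foxp3-eGFP reporter, in which cells that express Foxp3 fluoresce green. The naive cells were sorted directly from the mice with a naive gate that included CD4+, eGFP-, CD25- and CD44 low. The Th0 cells were made from naive CD4 T cells in culture with anti-CD3/CD28, antibodies that trigger the T cell receptor and its main costimulator. The length of the culture, any added interleukin-2 and any sort at its end are not given in the sources used here, so that activation, days of growth in medium and handling cannot be told apart in this contrast. The labels do not say whether the 2 libraries of a group came from separate mice or cultures. The test was fitted over 12 libraries, these 4 and those of the induced regulatory T cell conditions of the series. All groups share an estimate of the spread, so most of the libraries behind it are outside this contrast. The p-values measure only this spread between libraries of the same group.

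A naive T cell is small, quiescent and metabolically frugal, and it is kept in that state by transcription factors such as KLF2, FOXO1, TCF-1 and LEF1 and by interleukin-7. Engagement of the T cell receptor with CD28 costimulation raises MYC and mTOR activity, makes the cell grow, shift to aerobic glycolysis and synthesise lipid and nucleotides, and leads it through repeated division under interleukin-2. Immediate-early genes such as Egr1, Fos and Nr4a1 respond to receptor signals within the first hours and then decline. Th0 cells are activated through the same receptors, without the cytokines that direct T helper lineages.

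Levels are given as CPM, the usual depth-scaled count in which the reads of a gene are divided by all gene reads of its library, first for library 1 and then for library 2 of a group. CPM is a share of the library, so that fewer cells of a type and less RNA per cell cannot be told apart. Fold changes are log2 ratios of Th0 over naive from edgeR's quasi-likelihood test, given ± the standard error, and a gene was called at a Benjamini-Hochberg adjusted p under 0.05 over the 11287 genes with enough reads to test. The libraries held 9925908 and 9647669 gene reads for naive and 10247927 and 10073156 for Th0 cells. Replicates lay close together, with a median absolute log2 difference per gene of 0.12 in naive and 0.11 in Th0 cells.

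Of the tested genes, 8131 (72%) were called: 4025 (35.7%) were higher and 4106 (36.4%) lower in Th0 cells, and the median over all tested genes was -0.01. The scaling of libraries holds the bulk of genes near 0, so neither this median nor the even split shows whether RNA per cell changed. At a change of at least 2-fold, 1973 genes (17.5%) were higher and 1656 (14.7%) lower. The libraries of the 2 groups did not overlap in CPM for 4971 genes with Th0 above (44%) and 4799 with Th0 below (42.5%). The extremes were unequal, with 333 genes up by at least 5 on the log2 scale and 74 down by as much. Against this background a call by itself says little about a list, and each list is given with its counts in both directions and its median, to be read against the shares over all genes. In the plot of fold change against mean level the called genes lie on both sides of 0.

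**Figure D1:**
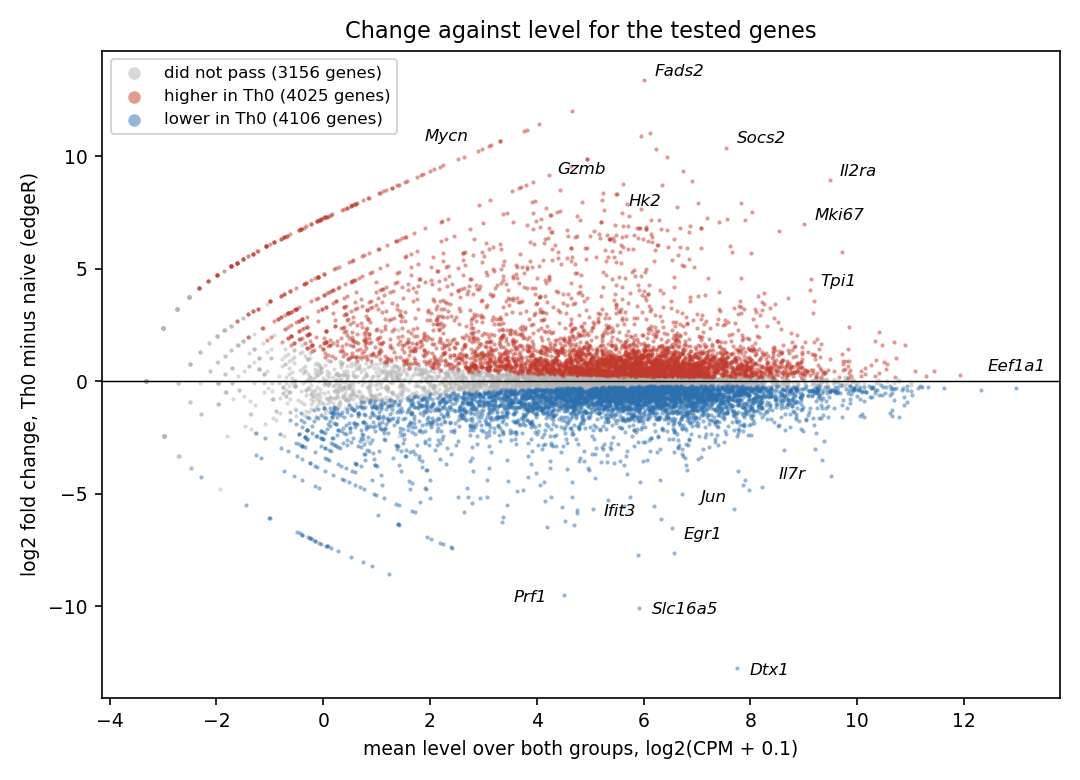
Each point is a tested gene, with the log2 of its mean level over both groups (CPM + 0.1) on the horizontal axis and its log2 fold change of Th0 over naive cells on the vertical axis; red marks genes higher in Th0 cells, blue lower and grey not passing at an adjusted p of 0.05. Fads2 stands at the top and Dtx1, Slc16a5 and Prf1 at the bottom, and the diagonal lines of points at the left are genes with no read or few reads in 1 group.

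The labelled cell type was checked first. Cd3e, an invariant chain of the T cell receptor complex, stood at 541 and 561 CPM in naive and 396 and 386 CPM in Th0 libraries, and Cd4 at 1140.05 and 1129.6 and 676 and 656 CPM. Both were abundant in all libraries, and both were lower in Th0 cells without overlap (log2 fold change -0.52 ± 0.07 and -0.80 ± 0.07). Of 20 T cell identity genes 1 was higher, 14 were lower and 5 did not pass, with a median of -0.49. Thy1 was the one that rose, from 869 and 889.96 to 1409.7 and 1278 CPM. Cd8a, which defines the other main T cell class, was at 0.504 and 0.518 CPM in naive cells and at 0 in both Th0 libraries. The whole list of 7 CD8 T cell markers was not near 0. It summed to 185 and 197 CPM in naive and 166 and 168 CPM in Th0 libraries. Of its 6 tested members 1 was higher, 4 were lower and 1 did not pass (median -2.31).

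Genes of other cells were scarce, with exceptions. The summed level of the 16 B cell markers was 8.36 and 13.3 CPM in naive and 19.4 and 30.8 CPM in Th0 libraries; Pax5 and Ebf1 were at 0 in all of them. Within that list H2-Ab1, a chain of MHC class II, was higher in Th0 cells (0.201 and 0.311 against 9.95 and 22.8 CPM) while its partner chain H2-Aa was at 0.201 and 0.311 against 0 and 0 CPM. The 21 myeloid and dendritic markers summed to 11.3 and 10.4 CPM in naive and 6.15 and 7.84 CPM in Th0 libraries, with Csf1r, Cd14 and S100a8 at 0 throughout, and the 11 natural killer markers to 12.7 and 17.5 and to 2.44 and 2.38 CPM. Of the natural killer sum most was Eomes in the naive libraries (8.26 and 13 CPM), which CD4 T cells can also express. Hba-a2, an alpha globin gene, was at 0.806 and 1.87 CPM in naive and 134 and 96.1 CPM in Th0 cells (log2 fold change 6.40 ± 0.58, or 7.11 without naive replicate 2), although the beta globin gene Hbb-bs was at 0.504 and 0.726 and 0.293 and 0.199 CPM and the red cell gene Alas2 was below 0.5 CPM in every library. Alpha globin has near-identical copies, so reads of Hba-a2 are uncertain as to copy. Of 10 stromal and endothelial markers Pecam1, which naive T cells also express, made up nearly the whole sum (231 and 254 in naive and 99.7 and 102 CPM in Th0 libraries), Cdh5 was at 2.01 and 1.24 and 0 and 0 CPM, and Dcn and Pdpn were at 0 throughout. The part of other cell types in the contrast was not tested.

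Genes that encode the sorted surface proteins differed in the direction the naive gate sets, which is no finding of the comparison. Il2ra, which encodes CD25, was at 2.92 and 2.59 CPM in naive and 1266 and 1542 CPM in Th0 libraries. Cd44 was at 50.5 and 42.2 and 123 and 122 CPM. Foxp3, the factor that defines regulatory T cells and drives the reporter, was low in both groups, at 26 and 26.3 CPM in the eGFP-negative naive libraries and 15.5 and 16.4 CPM in Th0 libraries. It was lower in Th0 cells (log2 fold change -0.74 ± 0.12, edgeR adjusted p = 7.1e-05). Genes that mark regulatory T cells, Foxp3 and Il2ra among them, moved both ways: of 14 tested, 8 were higher, 3 lower and 3 did not pass (median 0.94).

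The largest rises belonged to genes near absence in naive cells. Fads2, a fatty acid desaturase, had no read in either naive library and 113 and 139 CPM in Th0 cells, which makes it at least 820.3-fold higher if the naive libraries together are given 3 reads. Nov, a secreted matricellular protein, was at 0 in naive and 47.5 and 50.8 CPM in Th0 libraries, at least 321-fold higher on the same floor. Cpe, Acsl6 and Fut4 also had no naive read and stood at 28.5 and 36, 21.5 and 33.3 and 25 and 27.6 CPM in Th0 cells. Scd1, a stearoyl-CoA desaturase, had 1 naive read against 92.1 and 151 CPM, a ratio of 2378 (95% counting interval 426 to 93970). Such bounds and intervals cover counting error only. Lrrc32, which tethers latent TGFβ at the cell surface and is best known from regulatory T cells, had a ratio of 1113 (95% counting interval 380.5 to 5399), from 0.101 and 0.207 to 132 and 209.7 CPM. Among all genes counted, tested or not, 631 had at most 3 naive reads and more than 3 reads in Th0 cells. Of these 251 had no naive read and 209 reached 1 CPM in Th0 cells.

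The deepest losses were as complete. Dtx1, a Notch-regulated E3 ligase known from T cell anergy, was at 397 and 427 CPM in naive libraries and left 1 read in both Th0 libraries together, so that naive exceeded Th0 by a ratio of 8366 (95% counting interval 1501 to 330500). Slc16a5, a member of the monocarboxylate transporter family, went from 109 and 124 to 0.0976 and 0.0993 CPM, a naive excess of 1180 (95% counting interval 326 to 9749). Prf1, which encodes the pore-forming perforin, went from 41.2 and 45.9 to 0.0976 and 0 CPM, a naive excess of 884 (95% counting interval 158 to 34980). Naive and Th0 libraries did not overlap for any of these genes, which their choice by size of change sets. Of all tested genes 42.5% had Th0 below naive without overlap. Next came the cholesterol exporter Abca1 (54.8 and 43.6 to 0.781 and 0.397 CPM), the amyloid precursor App (44.9 and 42.8 to 0.781 and 0.397 CPM) and the sialyltransferase St8sia6 (162 and 143 to 2.54 and 1.99 CPM). Egr1 and the stress-inducible chaperones Hspa1a and Hspa1b belong to the same set and are described with their groups. Among all genes counted, tested or not, 513 had at most 3 reads over the Th0 libraries and more than 3 over the naive libraries. Of these 92 stood at 1 CPM or more in naive cells. The plot of individual libraries shows these switches beside genes that moved less.

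**Figure D2:**
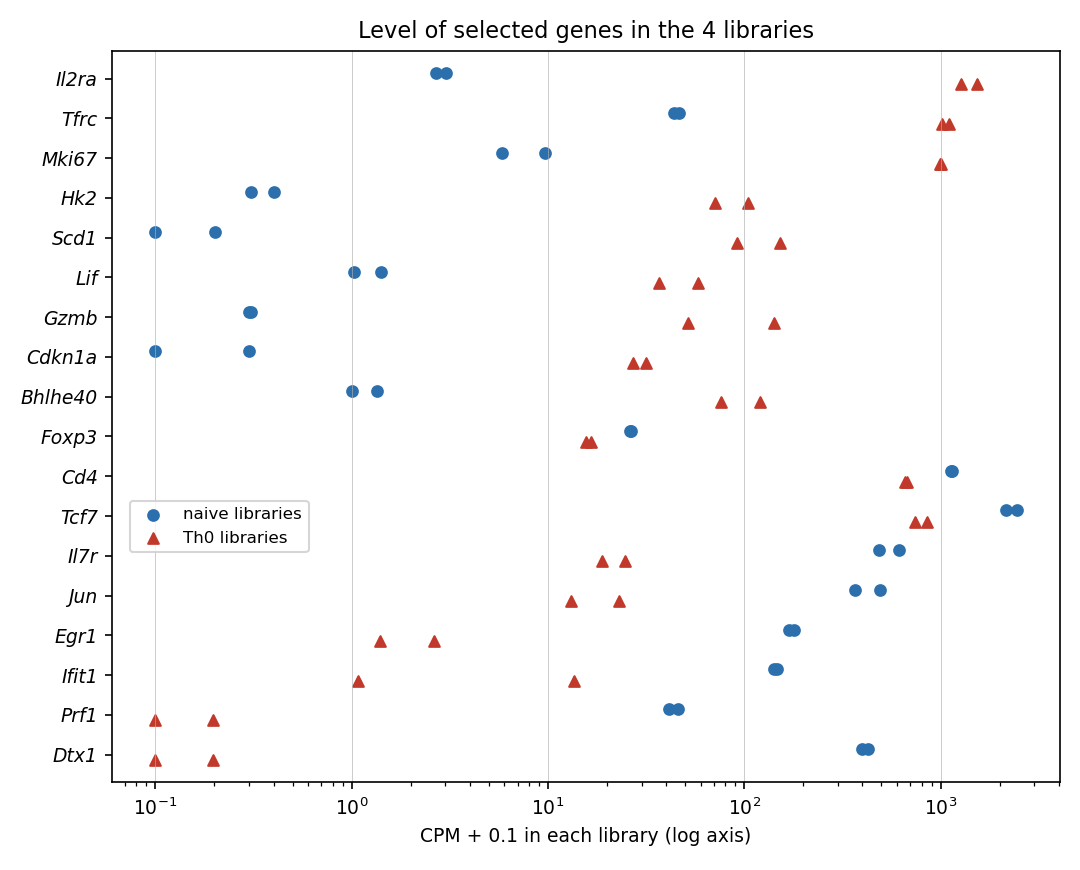
The level of 18 selected genes in each library, as CPM + 0.1 on a log axis, with naive libraries as blue circles and Th0 libraries as red triangles. The replicates nearly coincide for most genes, those of Ifit1 in Th0 cells lie apart, and naive and Th0 libraries are far apart for Il2ra at the top and Dtx1 at the bottom.

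Proliferation genes were higher almost throughout. All 50 tested genes of DNA replication were higher in Th0 cells, with a median log2 fold change of 2.78, and their summed share of reads went from 0.2% and 0.2% to 1% and 0.977%. Of 49 genes of mitosis and the kinetochore 47 were higher, 1 was lower and 1 did not pass, with a median of 5.77, and their share went from 0.0992% and 0.107% to 1.03% and 1.06%. Mki67, the standard proliferation marker, rose from 5.74 and 9.54 to 998 and 1002 CPM (log2 fold change 7.0 ± 0.18, edgeR adjusted p = 4.9e-13). Top2a, which decatenates chromosomes, rose from 25.4 and 32.5 to 1538 and 1696 CPM, and the mitotic kinase Aurkb from 0.705 and 1.04 to 198 and 187 CPM. The replication factor Mcm10 rose from 0.604 and 0.415 to 68.4 and 75 CPM and the ribonucleotide reductase subunit Rrm2 from 6.15 and 8.08 to 401 and 382 CPM. The sliding clamp Pcna went from 244 and 195 to 684 and 664 CPM. The exceptions of the mitotic list were the condensin subunit Smc4, which was already high in naive cells and did not pass (575 and 640.3 against 592 and 679.6 CPM), and the securin Pttg1, which was lower (26.2 and 30.5 against 17.6 and 14.6 CPM).

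Of 29 cyclins, cyclin-dependent kinases and E2F factors 24 were higher and 3 lower, with a median of 2.59. Cdk1 rose from 2.42 and 2.07 to 269.9 and 256 CPM and Ccna2, cyclin A2, from 2.22 and 3.21 to 519 and 504 CPM. The inhibitory factors E2f7 and E2f8 rose from 0.101 and 0.311 and from 0.604 and 0.518 CPM to 42.8 and 41.1 and to 117 and 123 CPM, alongside the activator E2f1 (3.22 and 4.04 to 56.2 and 49.5 CPM). D-type cyclins, which open the cycle, did not move together: Ccnd3 rose from 211 and 179 to 489 and 461 CPM and Ccnd2 fell from 879.7 and 695 to 469 and 506 CPM. Most cell cycle inhibitors were also higher, 6 of 8 tested with 1 lower (median 5.52). The size of this median depends on genes low in naive cells, and it was 1.63 with limma on log2(FPKM + 1). Cdkn2d, abundant in both groups, did not pass (44.5 and 48.2 against 40.9 and 40.8 FPKM, a level per transcript length). Cdkn1a, which encodes p21, rose from 0.201 and 0 to 26.9 and 31.7 CPM, a ratio of 287 (95% counting interval 79 to 2372), and Cdkn2c, which encodes p18, rose from 3.12 and 5.18 to 129 and 118 CPM. Cdkn1b, the p27 inhibitor of resting T cells, fell from 186 and 175 to 114 and 139.98 CPM. Cdkn2a, silent in naive cells, reached 5.85 and 5.46 CPM, at least 36.9-fold higher.

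Promoters of these genes are known for the sites of E2F factors and, in mitotic genes, for the CHR element read by the DREAM and B-MYB complexes. RefSeq promoters of build GRCm38.p6 ran from 250 bases before to 50 bases after a start. They were matched by Entrez gene ID for 9088 of the 11287 tested genes (11583 promoters) and searched on both strands. The E2F site was searched as TTTCCCGC and as TTTGGCGC, which are distinct, and the CHR element as TTTGAA. Of the 47 promoters of the 40 matched replication genes 12.8% held the first E2F form, against 2.14% of all promoters, and 12.8% held the second, against 0.976%. Of the 47 promoters of the 42 matched mitotic genes 66% held TTTGAA, against 11.9% of all, and 76.6% held CCAAT, against 37.8%. The following 60-base windows show an E2F form in Cdc6 (chr11:98907987-98908046, plus strand) and Pola1 (chrX:93632260-93632319, minus strand) and the CHR letters in Ube2c (chr2:164769869-164769928, plus strand) and Mki67 (chr7:135716445-135716504, minus strand). They were picked as the members with the largest rise whose motif lies before the start. Promoters of a single chromosome were left out of the windows shown here and below. Capitals mark the motif on either strand, and the coordinates are of GRCm38 while the counts were made on mm9.
Cdc6: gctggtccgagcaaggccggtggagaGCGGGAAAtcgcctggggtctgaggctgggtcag
Pola1: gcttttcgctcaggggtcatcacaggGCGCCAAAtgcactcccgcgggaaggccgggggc
Ube2c: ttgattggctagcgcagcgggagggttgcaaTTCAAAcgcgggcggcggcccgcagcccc
Mki67: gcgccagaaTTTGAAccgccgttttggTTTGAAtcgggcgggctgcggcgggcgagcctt
These genes rose from 1.41 and 1.55 to 92.5 and 97.7 CPM (Cdc6, which loads the replicative helicase), from 13.4 and 13.8 to 121 and 124 CPM (Pola1, the catalytic subunit of the priming polymerase) and from 1.61 and 1.97 to 303 and 266 CPM (Ube2c, a ubiquitin-conjugating enzyme of the anaphase-promoting complex). A match describes letters in this window and is neither evidence of binding nor a cause.

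**Figure D3:**
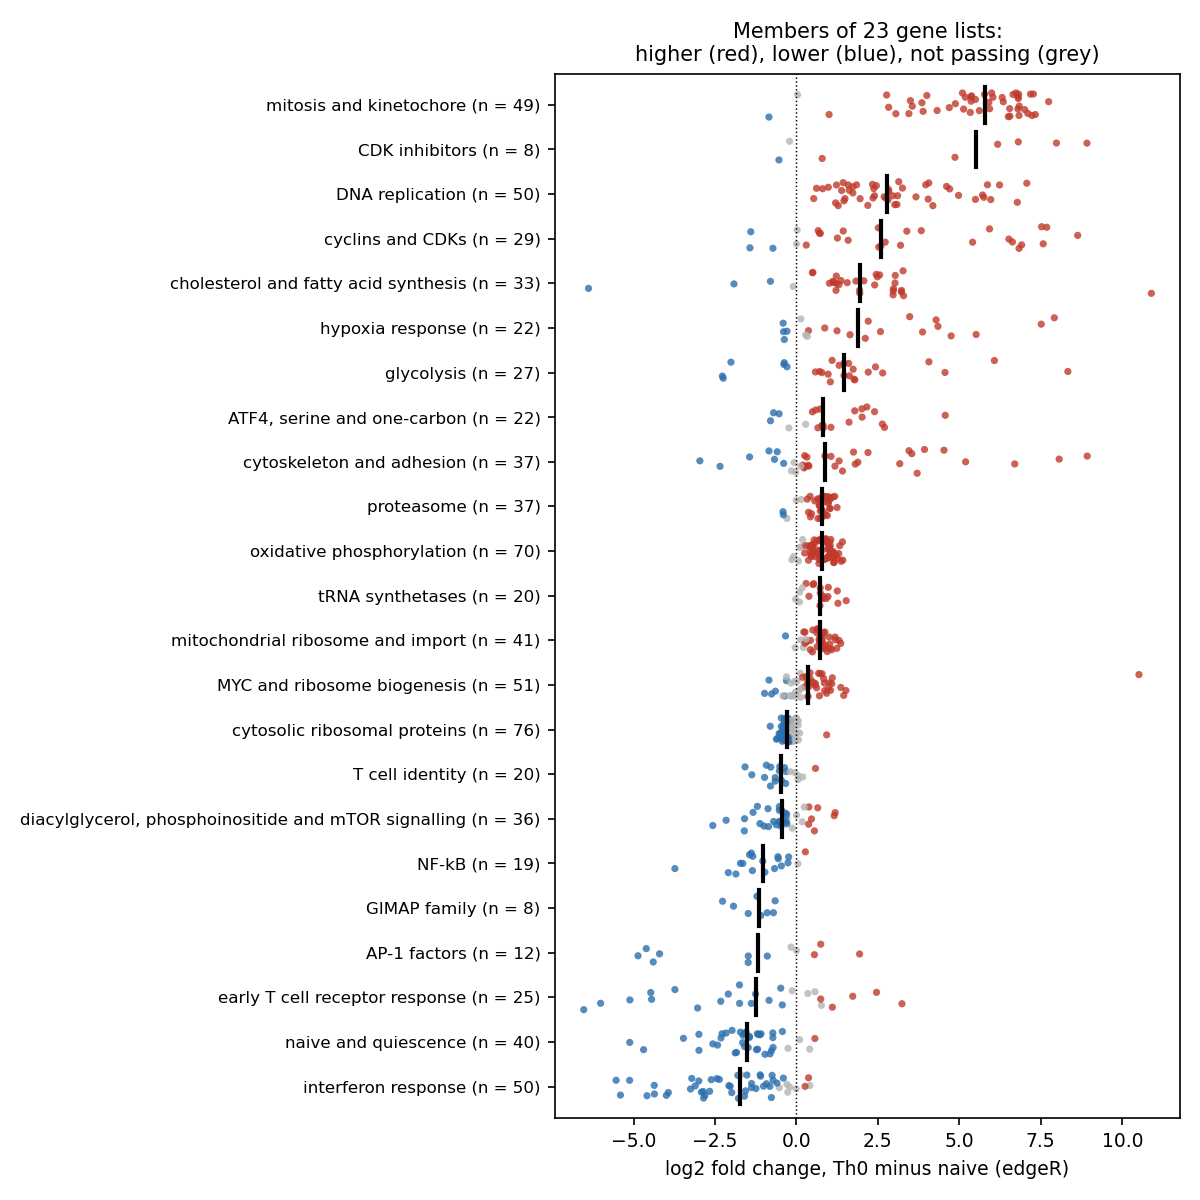
For 23 gene lists the horizontal axis gives the log2 fold change of Th0 over naive cells, with each tested member as a point (red higher, blue lower, grey not passing; vertical scatter only separates points) and the list median as a black bar. DNA replication lies wholly to the right of 0 and mitosis almost wholly, while interferon response, NF-kB and quiescence genes lie mostly to the left.

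DNA damage genes split. Of 24 tested 15 were higher and 8 lower (5 without naive replicate 1), with a median of 0.72. The recombination and checkpoint genes Chek1 (1.21 and 1.35 to 57.8 and 57.9 CPM) and Brca1 (4.33 and 4.04 to 81 and 86.9 CPM) rose, whereas the apical kinases Atm (196 and 199.7 to 67.2 and 75.8 CPM) and Atr (52.5 and 61.7 to 32.5 and 36.1 CPM) fell. Trp53 itself changed little (219 and 183 to 265 and 259 CPM, log2 fold change 0.35 ± 0.09; not called without naive replicate 2, at 0.22).

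Among histone genes 13 of 19 tested were higher and 1 lower, with a median of 1.97; the higher count ran from 9 with the Th0 and naive libraries fitted alone to 24 without Th0 replicate 2. The variants H2afx and H2afz, whose transcripts are polyadenylated, rose from 35.8 and 39.3 to 393 and 342 CPM and from 154 and 153 to 724 and 658 CPM. Replication-dependent histone transcripts lack a poly(A) tail and the kit selects mRNA by that tail, and these genes were low in all libraries. Hist1h1b had no naive read and 3.9 and 0.695 CPM in Th0 libraries, and Hist1h1d went from 0.604 and 0.415 to 8 and 1.19 CPM; Th0 library 1 was several times higher than Th0 library 2 in both. The call of Hist1h1d was lost without Th0 replicate 1 (log2 fold change 1.19) and without either naive replicate.

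Both expressed MYC genes were higher. Myc was at 124 and 132 CPM in naive and 264 and 296 CPM in Th0 cells (log2 fold change 1.10 ± 0.08, edgeR adjusted p = 1.3e-08). Mycn, the family member of progenitor and tumour cells, was silent in naive cells and at 18.9 and 15.3 CPM in Th0 cells, at least 112-fold higher. Of 13 genes of the MYC network and its antagonists 4 were higher and 7 lower, with a median of -0.31. Mga (183 and 156 to 68.3 and 75.1 CPM) and Mxd4 (49.1 and 34.9 to 23.9 and 19.6 CPM), competitors for the partner MAX, fell while Mxd3 rose from 1.31 and 0.622 to 83.9 and 75 CPM. Txnip, a brake on glucose uptake that the related MondoA factor drives, fell from 1000.01 and 906 to 184 and 215 CPM.

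Of 51 MYC and ribosome biogenesis genes 30 were higher, 6 lower and 15 did not pass, with a median of only 0.35. The small nucleolar ribonucleoprotein genes Nhp2 (45.7 and 47.6 to 142 and 131 CPM) and Nop56 (150.1 and 121 to 257 and 286 CPM) and the nucleolar GTPase Gnl3 (37.1 and 37.2 to 102 and 106 CPM) were among the higher. Polr1a, the largest subunit of RNA polymerase I, was lower (177 and 158 to 104 and 97.7 CPM). The E-box CACGTG, a palindrome that MYC and MAX bind, was in 20% of the 55 promoters of the 45 matched genes, against 10.1% of all promoters.

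Transcripts of the ribosomal proteins themselves took a smaller share of the library in Th0 cells. Of 76 cytosolic ribosomal protein genes 1 was higher, 56 were lower and 19 did not pass, with a median of -0.29. Their summed share was 8.39% and 8.79% in naive and 7.36% and 7.07% in Th0 libraries, without overlap. Rplp0, a stalk protein whose call was also lost without Th0 replicate 2 or naive replicate 2, went from 3256 and 3442 to 2884 and 2766 CPM and Rpl12 from 1774 and 1841 to 1242 and 1217 CPM. Changes of this size depend on scaling and on single libraries: with Th0 replicate 2 left out 31 of the 76 were called lower and with naive replicate 2 left out 36, although the median kept its sign at -0.22 and -0.25. Ribosomal protein genes have many processed pseudogenes, and how the authors placed shared reads is not given in the sources used here.

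Of 30 translation factors 18 were higher and 8 lower, with a median of 0.38. The helicase Eif4a1 rose from 622 and 572 to 1136 and 1119.9 CPM and its close relative Eif4a2 fell from 369 and 382 to 122 and 154 CPM, so that Eif4a1 went from 74% and 71.6% to 94% and 92.5% of their joint FPKM, a level per transcript length. Eif4ebp1, the cap-binding repressor that mTOR phosphorylates, rose from 5.14 and 4.56 to 32.1 and 49.3 CPM, and Pdcd4, an inhibitor of the helicase, fell from 424 and 368 to 182 and 169 CPM. The elongation factors Eef2 (5490.1 and 5623 to 4590.1 and 4204 CPM) and Eef1a1 (8271 and 8744 to 7102 and 7286 CPM) fell slightly, as the ribosomal proteins did. Of 20 aminoacyl-tRNA synthetases 16 were higher and none lower, with a median of 0.73, led by Vars (159 and 187 to 511 and 507 CPM) and Gars (123 and 133 to 307 and 324 CPM).

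Amino acid synthesis genes rose. Of 22 ATF4, serine and one-carbon genes 17 were higher and 3 lower, with a median of 0.82. Phgdh and Psat1, the first steps of serine synthesis, rose from 101 and 112 to 419.8 and 459.9 CPM and from 48.3 and 53.4 to 303 and 342 CPM. Shmt2, which feeds mitochondrial one-carbon units, rose from 76.7 and 94.6 to 295 and 309 CPM. Asns, asparagine synthetase, rose from 0.604 and 0.104 to 3.61 and 14.3 CPM, with the Th0 libraries far apart, and its call was lost when the 4 libraries were fitted alone. For nucleotides 15 of 21 purine and pyrimidine genes were higher and 2 lower (median 0.73), and Impdh2 rose from 206 and 207 to 473 and 463 CPM. Of 23 nutrient transporters 13 were higher and 4 lower (median 0.44): the transferrin receptor Tfrc rose from 43.7 and 46.4 to 1021 and 1109 CPM (log2 fold change 4.53 ± 0.10) and the leucine carrier Slc7a5 from 76.7 and 94 to 181 and 216 CPM. Its partner chain Slc3a2 did not pass (123 and 121 against 126 and 149.6 CPM).

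Most glycolysis genes were higher, with 21 of 27 tested genes higher, 6 lower and a median of 1.46. The lower count fell to 3 without Th0 replicate 1, without naive replicate 1 and with DESeq2, and to 2 without naive replicate 2. Together these genes took 0.521% and 0.531% of naive reads and 1.43% and 1.74% of Th0 reads. Hk2, the inducible hexokinase, rose from 0.302 and 0.207 to 70.8 and 105 CPM (log2 fold change 8.33 ± 0.39, edgeR adjusted p = 5.2e-10). Tpi1 rose from 55.4 and 64.9 to 901 and 1156 CPM, Pgk1 from 269.8 and 285 to 1263 and 1784 CPM and Gapdh from 711 and 724 to 2401 and 2597 CPM. Slc2a1, the glucose transporter GLUT1, rose from 49 and 45.6 to 180.04 and 265 CPM. For lactate export, Slc16a3 rose from 2.52 and 1.76 to 112 and 186 CPM and Slc16a1 from 45.6 and 43.7 to 148 and 157 CPM. Among the genes that fell were Ldhb, the lactate dehydrogenase subunit that favours pyruvate (50 and 55.5 to 14.6 and 12 CPM), and the pyruvate dehydrogenase kinase Pdk2 (17.8 and 20.7 to 4.39 and 3.87 CPM).

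Hypoxia-response genes, several of which are glycolytic, were higher in 15 of 22 cases and lower in 4, with a median of 1.88. None of the 22 was lower without Th0 replicate 1, 1 without naive replicate 1 and 2 without naive replicate 2. Nrn1, a surface protein also known from regulatory T cells, rose from 1.51 and 0.518 to 222 and 287 CPM, Ak4 from 0.403 and 0 to 23.8 and 56.9 CPM and Bnip3, a mitophagy receptor, from 9.67 and 6.84 to 74.9 and 173 CPM. Egln3, a prolyl hydroxylase that HIF induces, rose from 1.81 and 2.07 to 25.6 and 81.9 CPM. In these genes Th0 library 2 lay above Th0 library 1. Bnip3l (291 and 267 against 176 and 254 CPM), Kdm3a (149.9 and 125 against 93.1 and 120.4 CPM) and Pdk1 (407 and 476 against 318 and 378 CPM), which HIF also induces, were lower by small amounts. Each lost its call without Th0 replicate 1 (log2 fold change -0.15, -0.21 and -0.24) and without 1 of the naive replicates (replicate 1 for Bnip3l and Kdm3a, at -0.34 and -0.26, and replicate 2 for Pdk1, at -0.26).

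Most mitochondrial genes were higher, by smaller amounts. Of 70 oxidative phosphorylation genes 64 were higher and none lower, with a median of 0.77; Cox5a, a subunit of complex IV, rose from 75.7 and 83.5 to 217 and 191 CPM and Ndufb7, of complex I, from 48.7 and 54.3 to 144 and 128 CPM. Of 41 genes of the mitochondrial ribosome and import machinery 36 were higher and 1 lower (median 0.73). Of 32 genes of the citric acid cycle and glutamine use 23 were higher and 3 lower (median 0.44); Idh1, the cytosolic isocitrate dehydrogenase, rose from 5.64 and 5.18 to 33 and 27.4 CPM while Idh2, its mitochondrial counterpart, fell from 105 and 122 to 90.2 and 88.8 CPM. Both make alpha-ketoglutarate, the cosubstrate of the TET enzymes. Pentose phosphate genes were higher in 7 of 8 cases and lower in 1 (median 0.45), with Tkt going from 279 and 306 to 939 and 975 CPM. Of 17 fatty acid oxidation genes 7 (41.2%) were higher and 4 (23.5%) lower, against 35.7% and 36.4% over all genes. Their median was 0.15, or 0.12 without Th0 replicate 1 and 0.19 without naive replicate 1.

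Lipid synthesis genes rose together. Of 33 cholesterol and fatty acid genes 29 were higher and 3 lower, with a median of 1.94. The mevalonate enzymes Idi1 (43.4 and 37.3 to 395 and 409.8 CPM), Fdps (50.3 and 50.3 to 486 and 473 CPM) and Sqle (31.6 and 32.2 to 290.4 and 316 CPM) each rose by about the same amount, with log2 fold changes of 3.29, 3.22 and 3.22. Scd2, the main desaturase of naive cells, rose from 106 and 137 to 930.2 and 1093 CPM. The drivers Srebf1 (140.2 and 151 to 206 and 212 CPM) and Srebf2 (399.96 and 416 to 604 and 576 CPM) rose only slightly. The genes that fell were the sterol exporters Abca1 and Abcg1 (145 and 177 to 98.3 and 90.4 CPM), which LXR activates, and Acss2 (172 and 154 to 42.8 and 45.4 CPM), which makes acetyl-CoA from acetate. Naive and Th0 libraries did not overlap for any of these genes, most of them named for their large change. Of all tested genes 44% had Th0 above and 42.5% Th0 below without overlap.

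Sterol genes are controlled by SREBP proteins through the sterol regulatory element. The letters TCACCCCAC were in 1 (3.33%) of the 30 promoters of the 24 matched lipid genes, against 0.561% of all promoters. A single promoter is too few to compare these shares. CCAAT, bound by the SREBP partner NF-Y, was in 70%, against 37.8% of all promoters. The member that held the element before its start was Hmgcs1, which encodes the cytosolic HMG-CoA synthase and rose from 65.5 and 60.4 to 474 and 531 CPM; the window lies at chr13:119690188-119690247 of GRCm38.p6, plus strand, with the element in capitals.
Hmgcs1: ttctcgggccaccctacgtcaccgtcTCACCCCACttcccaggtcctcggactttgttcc

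Protein quality control genes were mostly higher. Of 37 proteasome genes 32 were higher and 2 lower, with a median of 0.77. The constitutive catalytic subunit Psmb5 rose from 73.8 and 85.3 to 204 and 181 CPM, whereas the interferon-inducible Psmb10 (139 and 166 to 118 and 116 CPM) and the activator Psme1 (331 and 386 to 261 and 292 CPM) fell. Both lost the call without naive replicate 2 (-0.28 and -0.29), Psmb10 also without Th0 replicate 2 (-0.37) and Psme1 without Th0 replicate 1 (-0.31). Of 36 chaperone and unfolded protein response genes 28 were higher and 5 lower (median 0.64); Xbp1, the factor of the secretory stress response, rose from 49.5 and 49 to 183 and 229.8 CPM. Hspa1a and Hspa1b, near-identical copies whose reads cannot be apportioned, went the other way, from 162 and 64.4 and from 252 and 111 CPM to 0.488 and 0.596 and to 0.683 and 1.19 CPM. The naive replicates differed by more than 2-fold in both.

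Quiescence genes fell. Of 40 genes of the naive and quiescent state 36 were lower, 1 was higher and 3 did not pass, with a median of -1.52, and their share of reads went from 2.17% and 2.26% to 0.934% and 0.891%. Il7r, the receptor of the survival cytokine interleukin-7, fell from 614 and 486 to 24.6 and 18.8 CPM (log2 fold change -4.69 ± 0.20, edgeR adjusted p = 5.6e-10). Btg1, an antiproliferative factor of resting lymphocytes, fell from 1081 and 1208 to 109 and 102 CPM, and the actin crosslinker Actn1 from 1031 and 1006 to 139 and 122 CPM. Foxo1 fell from 570.4 and 699.96 to 153 and 137 CPM, Tcf7, which encodes TCF-1, from 2160.3 and 2443 to 857 and 738 CPM, and Lef1 from 696 and 663 to 212 and 229.9 CPM. Klf2, which sustains expression of S1pr1, fell less, from 389 and 492 to 214 and 169.8 CPM. The member that rose was Igfbp4, from 1028 and 1289 to 1872 and 1626 CPM. All 8 tested genes of the GIMAP family, GTPases of lymphocyte survival, were lower (median -1.15), and Gimap8 fell most (361 and 338 to 66.5 and 81.6 CPM).

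Immediate-early genes were high in the sorted naive cells and low in the cultured cells. Fos was at 354 and 519 CPM in naive and 16.4 and 25.9 CPM in Th0 libraries, Junb at 1182 and 1494 and 66.4 and 82 CPM and Egr1 at 169.7 and 180.1 and 2.54 and 1.29 CPM. The groups were at least an order of magnitude apart in each. Nr4a1, a reporter of recent receptor signals, fell from 108 and 116 to 4.68 and 5.56 CPM. Of 25 early T cell receptor response genes 16 were lower and 5 higher (median -1.25), and of 12 AP-1 factors 7 were lower and 3 higher (median -1.19). Batf, which pairs with Jun proteins in effector cells, was among those that rose, from 28.3 and 30.3 to 54.9 and 45.2 CPM. Irf4 did not pass (18.2 and 17.8 against 30.2 and 24.3 CPM). Immediate-early transcripts and Hspa1a are also known to respond to tissue dissociation and sorting, and the naive samples were sorted directly from tissue; in this design handling and culture cannot be told apart.

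NF-kB genes followed, with 17 of 19 lower and 1 higher (median -1.03). The feedback inhibitors Nfkbia and Tnfaip3 fell from 165 and 187 to 46.3 and 52.7 CPM and from 169 and 228 to 14.1 and 16.5 CPM. Rel, the subunit of activated lymphocytes, fell from 23.8 and 24.4 to 9.56 and 9.23 CPM. Among 17 E3 ligases and anergy genes 13 were lower and 2 higher (4 higher without Th0 replicate 1), with a median of -0.71. The lower ones included the diacylglycerol kinase Dgka (1242 and 1194 to 405 and 416 CPM) and Cblb (185 and 179 to 107 and 111 CPM), which restrain receptor signals, besides Dtx1. Of 36 genes of phosphoinositide, diacylglycerol and mTOR signalling 24 were lower and 7 higher (median -0.44); Akt1 rose from 184 and 179 to 433 and 394 CPM and Pik3ip1, an inhibitor of PI3 kinase, fell from 195 and 183 to 33 and 32 CPM. Of 28 calcium and potassium channel genes 9 (32.1%) were called in each direction, no more than the 35.7% and 36.4% over all genes, with the inositol trisphosphate receptor Itpr2 falling from 225 and 213 to 56.9 and 54.6 CPM and the calcium pump Atp2b4 rising from 1.41 and 0.829 to 21.4 and 26 CPM.

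Among the interleukin-2 receptor chains Il2ra is set by the CD25- gate. The beta chain Il2rb rose from 34.5 and 40.7 to 366 and 424 CPM, while the shared gamma chain Il2rg, already abundant, was slightly lower (823 and 840.4 against 746 and 701 CPM; not called without Th0 replicate 2, at -0.15). Of 23 STAT, JAK and SOCS genes 5 were higher and 15 lower, with a median of -0.5. The higher ones included feedback genes known to respond to STAT5, Socs2 from 0.403 and 0.104 to 360.2 and 373 CPM (log2 fold change 10.39 ± 0.17, or 11.61 and 9.76 without naive replicate 1 or 2), Cish from 20.6 and 12.6 to 222 and 251 CPM and Socs1 from 32.6 and 39.9 to 155 and 156 CPM. Signal transducers were among those that fell, Stat5b from 367 and 360.3 to 149.98 and 149 CPM, Jak1 from 1621 and 1613 to 555 and 567 CPM and Stat3 from 346 and 334 to 141 and 149 CPM.

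Of 28 interleukin and cytokine receptor genes, Il2ra and Il7r included, 10 (35.7%) were higher, the share over all genes, and 13 lower, with a median of 0.03. Both chains of the interleukin-6 receptor fell, Il6ra from 344 and 389.5 to 87.6 and 76.9 CPM and Il6st from 328 and 365 to 82.9 and 75 CPM. Tgfbr2, the ligand-binding TGFβ receptor, fell from 802 and 794 to 182 and 171 CPM, whereas Tgfbr1 did not pass (46.3 and 44.8 against 45.4 and 49.4 CPM). Il9r, with no naive read, reached 5.66 and 4.17 CPM.

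Il2, Ifng, Il4 and Il17a, the signature cytokines of helper cells, were at or near 0. Of 38 cytokine and chemokine genes in the list 13 had enough reads to test; Il2 was at 0 and 0 CPM in naive and 0.488 and 0 CPM in Th0 cells, Ifng at 0 and 0.207 and 0 and 0 CPM, Il4 at 0 and 0 and 0.878 and 1.49 CPM, and Il17a had no read in any library. Levels under 3 reads over the libraries of a group were not detectable at this depth. Of the 13 tested 7 were higher and 3 lower, with a median of 0.79. Lif rose from 1.31 and 0.933 to 36.9 and 58.3 CPM (log2 fold change 5.36 ± 0.33), Lta, lymphotoxin alpha, from 23.5 and 19.8 to 95 and 132 CPM, and Tnf from 12.6 and 14.3 to 27 and 35.5 CPM. Ebi3, the shared subunit of interleukin-27 and interleukin-35, went from 0.101 and 0 to 7.42 and 6.85 CPM, and Ltb, the lymphotoxin beta of resting cells, fell from 576 and 587 to 396 and 389 CPM.

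Of 22 TNF receptors and ligands 9 (40.9%) were called in each direction, near the shares over all genes, with a median of -0.09. The costimulatory receptors Tnfrsf4, known as OX40, and Tnfrsf18, known as GITR, rose from 9.47 and 9.74 to 108 and 131 CPM and from 49.2 and 54.3 to 182 and 232 CPM. Tnfrsf14, the receptor HVEM, fell from 24.3 and 26.8 to 5.37 and 5.86 CPM while its ligand Tnfsf14 rose from 1.01 and 0.726 to 19.1 and 18 CPM. Among 22 costimulatory and inhibitory receptors 5 were higher and 11 lower (median -0.55). Ctla4 rose from 3.93 and 5.8 to 71.8 and 109 CPM and the ectoenzyme Entpd1, CD39, from 0 and 0.207 to 14.1 and 16.7 CPM. Pdcd1, which encodes PD-1, did not pass (5.74 and 4.15 against 5.46 and 4.27 CPM), and Lag3 fell from 2.01 and 4.25 to 0.683 and 0.794 CPM, a call that was lost without naive replicate 2 (-1.47).

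Over 31 lineage factors 11 (35.5%) were higher and 15 (48.4%) lower, against 35.7% and 36.4% over all genes, with a median of -0.71. Tbx21, the T-bet gene of type 1 cells, was at 0.302 and 0.311 and 0.878 and 1.29 CPM and too low to test. Gata3, of type 2 cells, was present in both states and rose slightly, from 66.4 and 68.4 to 94.8 and 88.7 CPM (log2 fold change 0.42 ± 0.09). Bcl6, of follicular helper cells, fell from 25.3 and 27.2 to 1.85 and 2.38 CPM, Eomes from 8.26 and 13 to 0.293 and 0.298 CPM and Maf from 3.93 and 3.63 to 0.0976 and 0.199 CPM. The largest rise of the list was Bhlhe40, a repressor of activated T cells, from 0.907 and 1.24 to 75.7 and 121 CPM. Id2 and Id3, inhibitors of E proteins, rose together, from 44.6 and 53.2 and from 57.9 and 54.4 CPM to 109 and 117 and to 139.7 and 132 CPM, and Ikzf3 fell from 151 and 157 to 28.8 and 24.6 CPM.

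Cytotoxic granule genes moved in opposite directions. Gzmb, granzyme B, rose from 0.201 and 0.207 to 51.3 and 142 CPM (log2 fold change 8.77 ± 1.11, edgeR adjusted p = 0.00025), with Th0 library 2 well above library 1 and a log2 fold change of 7.90 without it, while Prf1 was lost as described. Ctsw, a cathepsin of cytotoxic cells, fell from 46.9 and 50.5 to 3.9 and 4.67 CPM and the receptor chain Klrd1 from 16.4 and 13.8 to 0.683 and 0.794 CPM. Gzmb has close paralogs, and Gzmc was at 1.81 and 1.87 and 10.5 and 13.9 CPM. Of 14 tested cytotoxic genes 4 (28.6%) were higher and 5 (35.7%) lower, no more than the 35.7% and 36.4% over all genes, with a median of -0.42.

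Homing receptors and integrins moved in both directions, 10 of 30 (33.3%) higher and 13 (43.3%) lower, against 35.7% and 36.4% over all genes (median 0.09). The chemokine receptors Ccr2, Ccr4 and Cxcr6 rose from 0.101 and 0.207 to 38.4 and 31.9 CPM, from 2.32 and 2.49 to 72.2 and 71 CPM and from 1.01 and 0.726 to 27.4 and 23.6 CPM. The integrin chain Itgb1 rose from 70.2 and 74.7 to 297 and 350.04 CPM, and its partner Itga4 fell from 573 and 557 to 158 and 142 CPM. Ccr7 and S1pr1, which govern entry to and exit from lymph nodes, fell from 653 and 679 to 319.97 and 305 CPM and from 779.9 and 836 to 368 and 361 CPM. Ccr9, the gut homing receptor, fell from 11.1 and 13.2 to 0.585 and 0.0993 CPM.

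Cytoskeletal genes were higher in 26 of 37 cases and lower in 7 (median 0.87). Anxa2 and S100a6, membrane and calcium-binding proteins of activated cells, rose from 5.94 and 7.67 to 703 and 742 CPM and from 0.403 and 0.518 to 251 and 217 CPM. Stmn1, a microtubule destabiliser of dividing cells, rose from 56.8 and 58.3 to 799.8 and 732 CPM and vimentin, Vim, from 472 and 464 to 2236 and 2144 CPM. The cortical proteins Msn (2245 and 2224 to 1422 and 1435 CPM) and Myh9 (2061 and 2003 to 1186 and 1125 CPM) fell. Actb, a common reference gene, was slightly higher (3519.9 and 3277 against 4328 and 4012 CPM, log2 fold change 0.27 ± 0.07), and Gapdh, another, was not constant, as given above.

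Of 16 genes of the BCL2 family, which holds members against and for cell death, 7 (43.8%) were higher and 5 (31.2%) lower. The shares over all genes were 35.7% and 36.4%. The median was 0.3, or 0.26 without Th0 replicate 1 and 0.22 without Th0 replicate 2. Bcl2l1, which encodes BCL-XL, rose from 23 and 24.6 to 108 and 108 CPM and Bcl2 from 224 and 213 to 484 and 574 CPM, while Mcl1 fell from 709 and 649 to 299 and 289.9 CPM. Of the joint FPKM of the anti-death members Mcl1 held 85.3% and 84.6% in naive and 48.7% and 45% in Th0 libraries. Of the killers, Bax rose from 43.2 and 45.1 to 127 and 112 CPM, Bmf fell from 8.36 and 5.08 to 1.07 and 2.18 CPM and Bcl2l11, which encodes BIM, did not pass (80.7 and 77.2 against 77.5 and 67.2 CPM).

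Similar exchanges between related genes were measured elsewhere as shares of the summed FPKM of a set. Of the hexokinases Hk2 went from 0.173% and 0.113% in naive to 21.8% and 26.4% in Th0 libraries, with Hk1 still the larger part. Slc16a3 went from 8.66% and 6.47% to 56.5% and 67% of the monocarboxylate transporter pair formed with Slc16a1. Of the Polycomb methyltransferases Ezh2 went from 44.5% and 46.3% to 91.9% and 92.9%, with Ezh1 falling from 101 and 92.5 to 45.6 and 41.8 CPM and Ezh2 rising from 37.8 and 37.1 to 239 and 253 CPM. Among pocket proteins Rbl2, which belongs to the DREAM complex of resting cells, went from 55.3% and 47.8% to 24.1% and 22.6% and Rbl1 from 22.5% and 22.5% to 42.8% and 46.8%, while Rb1 did not pass (75.6 and 107 against 94.6 and 91.7 CPM).

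**Figure D4:**
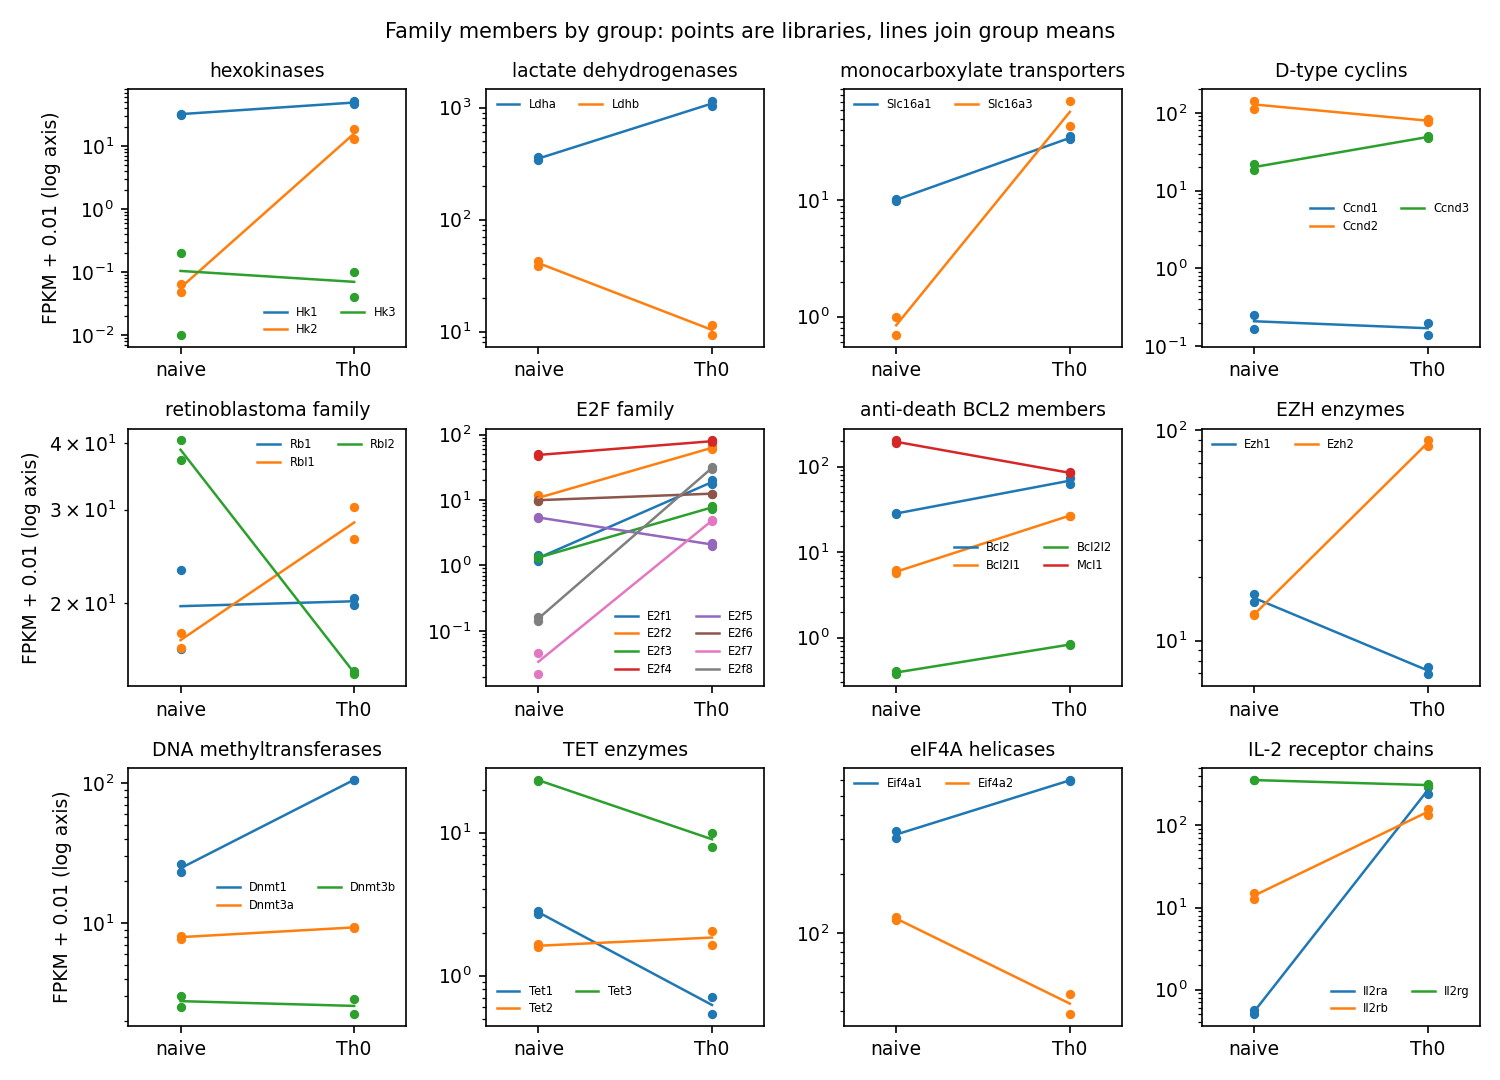
FPKM + 0.01 on a log axis for the members of 12 gene families, with each library as a point and lines joining the mean of the naive to the mean of the Th0 libraries; the vertical range differs between panels. Lines cross where the leading member changes, as for Slc16a1 and Slc16a3 or Ezh1 and Ezh2, and stay apart for Tet1, Tet2 and Tet3 except that Tet1 falls below Tet2.

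The TET and DNA methylation machinery, the subject of the wider study, changed in composition. Tet1 fell from 40.6 and 38.9 to 7.61 and 10 CPM (log2 fold change -2.20 ± 0.18, edgeR adjusted p = 3.4e-08) and Tet3, the most abundant of the 3, from 259.5 and 256 to 111 and 88.3 CPM (-1.40 ± 0.15). Tet2 did not pass, at 17.7 and 17 against 17.7 and 22 CPM (0.16 ± 0.17, edgeR adjusted p = 0.39). Tet2 went from 5.89% and 5.76% to 13.5% and 19.1% of the joint TET FPKM, and Tet3 remained the largest part at 82.2% and 74.4% in Th0 libraries. The maintenance enzymes rose, Dnmt1 from 184 and 162 to 744 and 743 CPM and its partner Uhrf1 from 8.87 and 9.64 to 506 and 485 CPM, whereas the de novo enzymes Dnmt3a (86.9 and 91.8 against 106 and 104 CPM) and Dnmt3b (13.1 and 10.8 against 9.66 and 12.4 CPM) did not pass. Tdg, which excises the products of TET oxidation, rose from 51.4 and 56.5 to 124 and 134 CPM. Over 23 genes of this list 7 (30.4%) were higher and 11 (47.8%) lower, against 35.7% and 36.4% over all genes, with a median of -0.17. Slc23a2, a sodium-dependent Vitamin C transporter, fell from 68.5 and 71.1 to 42.9 and 44.4 CPM. Of 36 Polycomb and chromatin enzymes 16 (44.4%) were higher and 14 (38.9%) lower, against 35.7% and 36.4% over all genes (median 0.02). The demethylase Kdm6b fell from 163 and 154 to 28.7 and 35.7 CPM.

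Interferon response genes were lower, 41 of 50 with 2 higher and 7 not passing, and a median of -1.74. Their share of reads was 1.01% and 1.08% in naive and 0.498% and 0.59% in Th0 libraries. Slfn5, a Schlafen family member, fell from 398 and 389 to 17.8 and 32.8 CPM (log2 fold change -3.99 ± 0.21, edgeR adjusted p = 1.1e-08). Ifit3, an antiviral effector with the close copy Ifit3b, fell from 130.2 and 144 to 0.781 and 5.26 CPM. The 2 that rose were Psmb8 (362 and 397 to 505 and 497 CPM) and Ly6e (916 and 961 to 1175 and 1124 CPM), both by small amounts.

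The interferon-stimulated response element, to which the factors activated by type I interferon bind, was searched on both strands as its core, which is GAAA, any pair of letters and GAAA again. It was in 50% of the 46 promoters of the 38 matched interferon genes, against 3.11% of all promoters. It is shown in capitals, on the reverse strand, for the members with the largest fall that held it before the start: Ifit3 (chr19:34583382-34583441, plus strand), Rsad2 (chr12:26456538-26456597, minus strand; 36.4 and 34.9 to 0.0976 and 1.99 CPM) and Ifit1 (chr19:34640779-34640838, plus strand; 147 and 142 to 0.976 and 13.4 CPM), all in RefSeq GRCm38.p6.
Ifit3: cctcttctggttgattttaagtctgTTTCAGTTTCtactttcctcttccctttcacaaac
Rsad2: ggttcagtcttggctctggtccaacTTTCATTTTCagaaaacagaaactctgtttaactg
Ifit1: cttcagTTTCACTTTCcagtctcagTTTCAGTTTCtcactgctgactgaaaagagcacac

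The Th0 replicates lay apart in these genes. Among 9342 genes with a mean of at least 5 CPM, 55 (0.589%) differed by more than 2-fold between the Th0 libraries and 16 (0.171%) between the naive libraries. Th0 library 2 lay above library 1 in 44 of 48 interferon genes, with a median log2 difference of 0.59 against 0.01 over all genes. Oas2 was at 0.195 and 9.23 CPM in the Th0 libraries, against 32.7 and 34 CPM in naive cells. Both Th0 libraries were below both naive libraries all the same, and in Ifit1 likewise, although both lost the call when the Th0 and naive libraries were fitted alone. Th0 library 2 was also above library 1 in 22 of 22 hypoxia genes (median 0.54) and in 23 of 26 glycolysis genes (median 0.26), and below it in 62 of 70 oxidative phosphorylation genes (median -0.11). Tnfrsf9, which encodes the costimulatory receptor 4-1BB, was at 6.15 and 34.3 CPM in Th0 libraries and 12.8 and 19.1 CPM in naive libraries and did not pass; its log2 fold change was 1.09 without Th0 replicate 1 and -1.37 without Th0 replicate 2. The median of the 50 interferon genes was -1.37 without Th0 replicate 1 and -2.16 without Th0 replicate 2. With the Th0 and naive libraries fitted alone 34 of the 50 were called lower, against 41 in the main fit, with a median of -1.72.

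**Figure D5:**
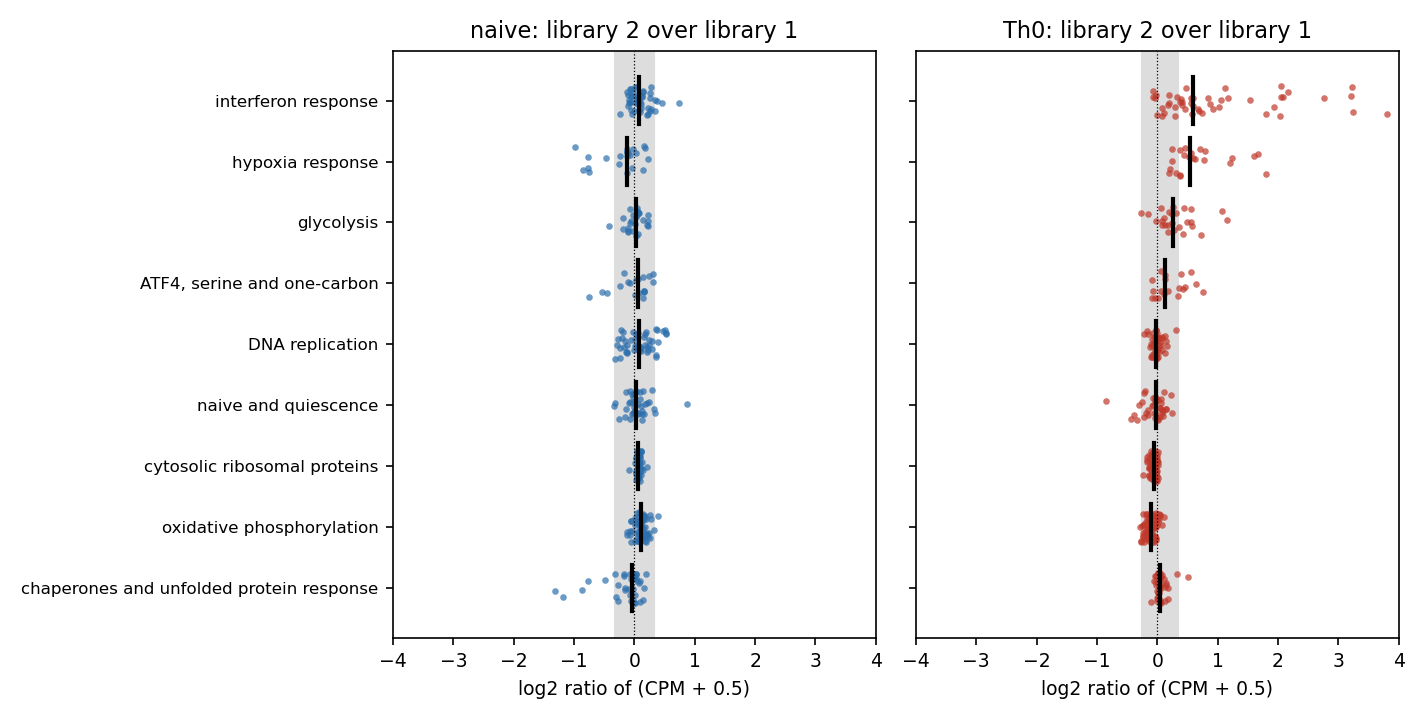
The log2 ratio of library 2 over library 1, from CPM + 0.5, for the members of 9 gene lists with a mean of at least 5 CPM, in naive cells (left, blue) and Th0 cells (right, red); black bars are list medians and the grey band holds the middle 90% of all such genes. Interferon and hypoxia genes reach far to the right of the band in Th0 cells. In naive cells the interferon median was 0.07, with 32 of 48 genes above 0, and the hypoxia median was -0.12.

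Among naive libraries the differences lay elsewhere. Hspa1a and Hspa1b were higher in naive library 1, as was the carnitine transferase Cpt1a (166 and 80.4 CPM). Oxidative phosphorylation genes were above in naive library 2 in 62 of 70 cases, by a median of 0.11, and ribosomal proteins in 75 of 76, by 0.06.

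Clock and hormone receptor genes fell more often than they rose, 12 against 5 of 21 (median -0.5). Tsc22d3, the glucocorticoid-induced leucine zipper, fell from 308 and 231 to 42.3 and 42.4 CPM, Per1 from 58.8 and 56.8 to 23.3 and 24.1 CPM and Arntl from 26.6 and 23.4 to 11.2 and 12.6 CPM. Nfil3 rose from 2.01 and 1.76 to 20.9 and 36.2 CPM. The retinoic acid receptor Rara, relevant to other arms of the series, fell from 106 and 99.5 to 63.4 and 65.6 CPM while its partner Rxra rose from 31.8 and 28.7 to 83.2 and 74.1 CPM. Of 30 lysosome and autophagy genes 7 were higher and 15 lower (median -0.33), with the protease Ctss falling from 298 and 345 to 92.1 and 95.9 CPM and Gabarapl1 rising from 3.83 and 3.94 to 44.4 and 40.6 CPM.

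The direction of change varied with transcript length. Genes higher in Th0 cells by at least 2-fold had a median summed exon length of 2860 bases, those lower by as much 4072 bases, and all tested genes 3314 bases. In the shortest quintile of genes, up to 1801 bases, 50.4% were higher and 18.8% lower; in the longest, from 5695 bases, 23.3% were higher and 53.5% lower. The median log2 fold change went from 0.40 in the shortest quintile to -0.40 in the longest.

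The Th0 level of some genes was set beside that of cultures given TGFβ, which produce induced regulatory T cells, in mice of the same strain, age and reporter. In the same model 2943 genes (26.1%) differed between Th0 and TGFβ cultures, 1312 (11.6%) higher and 1631 (14.5%) lower in Th0 cells. That count fell to 1480 without Th0 replicate 1, 1945 without Th0 replicate 2, 1539 without TGFβ replicate 1 and 1772 without TGFβ replicate 2. Both comparisons use the same Th0 libraries, and their values are given side by side only. Foxp3 was at 540.1 and 560.3 CPM with TGFβ, against 15.5 and 16.4 CPM in Th0 cells (Th0 minus TGFβ log2 fold change -5.08, edgeR adjusted p = 4.8e-13). Il2ra reached 3002 and 3202 CPM with TGFβ (edgeR adjusted p = 3.5e-07), above the Th0 level, and Ctla4 317 and 356 CPM (adjusted p = 2.8e-06), also above. Cxcr6, at 27.4 and 23.6 CPM in Th0 cells, was at 1.09 and 0.381 CPM with TGFβ, close to the naive level. Tet1 was at 3.83 and 2.48 CPM with TGFβ and lower than in Th0 cells (log2 fold change 1.5, edgeR adjusted p = 0.00037). For Mki67 (978 and 838 CPM with TGFβ, edgeR adjusted p = 0.34) and Myc (293 and 289 CPM, edgeR adjusted p = 0.85) the difference between Th0 and TGFβ cultures did not pass.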

How the data were processed

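RNA of sorted naive and cultured Th0 CD4 T cells was sequenced from libraries of a stranded mRNA kit, per the labels' protocols. The submitters' processing notes name the build mm9, TopHat2 (version 2.1.1) and edgeR (version 3.26.6) among other tools; the use of strand in counting is not given in the sources used here, so antisense and overlapping genes are uncertain. The authors deposited raw read counts per gene, which were tested, and FPKM values, which were used for levels between genes and in an alternative. Rows without a symbol, 92 of 21761, were kept and not named. The exon length in bases of each gene comes from the same deposited table.

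The test was edgeR 4.0.16 under R 4.3.3 (TMM factors, filterByExpr, robust quasi-likelihood fit, Benjamini-Hochberg adjustment) over 12 libraries in 6 groups of 2, naive, Th0 and the 4 induced regulatory conditions, which share 1 estimate of the spread (6 residual degrees of freedom). Replicates were checked against sampling noise: chi-square per degree of freedom over genes was 4.862 for naive and 5.215 for Th0 libraries, so none was a repeat deposit. The steps were also run on simulated counts in which few genes changed and all genes had the same spread. That setting differs from this contrast, so it does not measure the error rate here.

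Genes were named by a rule: the 15 largest changes in each direction, the most changed and most abundant members of each list, paralog sets, genes near absence in 1 group, the highest FPKM, a set of anchors and markers of other cells. Hmgcs1, Il4, Lef1, Nop56, Oas2, Pola1, Srebf1, Srebf2, Top2a, Trp53 and Vim fall outside it and were chosen after their values were seen. The comparison and all lists were chosen with earlier results of these data known. Alternatives were other scaling factors and filters, DESeq2 1.42.0, limma 3.58.1 on log2 of the deposited FPKM plus 1 or 0.1, other sets of libraries, a required change, a replicate block and leaving out each Th0 and naive library, and each TGFβ library as an alternative chosen after seeing the data. Some genes are not reported here.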

Additional observations from a re-analysis of the deposited data

How the results depend on the processing

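No count of calls over all genes in the Th0 and naive comparison moved by over 1.5 times under other scaling factors, other filters, DESeq2, other sets of libraries or any left-out library. Where a log2 fold change of 1 was required by the test itself, 2493 genes were called, 1462 higher and 1031 lower in Th0 cells. The count of genes lower by at least 2-fold was 974 with limma on log2(FPKM + 1), a scale that shrinks changes of low genes. The count between Th0 and TGFβ cultures was less stable, at 229 with the required change and 1480 to 2828 with single libraries left out (1480 without Th0 replicate 1, 1945 without Th0 replicate 2, and 1539 and 1772 without TGFβ replicate 1 or 2, the last pair chosen after seeing the data). The median over all genes moved by between -0.0366 (with all 20 libraries) and 0.0301 (with limma on log2 of FPKM + 0.1). Of single genes, the costimulatory receptor gene Tnfrsf9 changed sign, at 1.09 without Th0 replicate 1 and -1.37 without Th0 replicate 2. Lists with more members higher than lower numbered 28, and 27 to 29 under the alternatives.

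Naive and Th0 libraries with the same number did not deviate together (correlation 0.0207). This shows no shared offset, but from 2 libraries a group it cannot tell whether the numbers mark shared mice or cultures. The correlation was at most 0.109 for any pair of groups that held naive or Th0 libraries. Between some other groups it was larger, at 0.51 for those labelled RA and RA_VC and 0.419 for TGF and VC. A replicate block in the fit gave 8429 called genes, against 8131 in the main fit. Between Th0 and TGFβ cultures it gave 3866, against 2943. With 2 libraries a group, only the spread between libraries of the same group is measured, shared over all groups of the fit. Changes under 2-fold, such as those of ribosomal proteins, rest on few degrees of freedom.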
